A study of Mus musculus with 12 samples.

Results

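The Miz1(POZ) experiment compared liver tumours of mice that had lost the POZ domain of Miz1 in hepatocytes with tumours of floxed controls. It holds 6 of the 12 libraries of the series, 3 from Cre-positive mice, called knockout here, and 3 from Cre-negative mice, called floxed. Members were the genes with a mean of at least 1 FPKM (fragments scaled to transcript length and library size) over the 6 libraries, which left 11201 of 24054 genes. Of these, 163 had 3 knockout values all above or all below the 3 floxed values and a fold of group means of at least 2, and they are described by function.

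Knockout mice had the Miz1(POZ)_delta_Hep genotype, made by crossing floxed mice with an Alb-Cre line, in which the albumin promoter drives Cre recombinase in hepatocytes. Controls were Miz1(POZ)fl/fl mice without Cre. Both groups were of C57BL/6 background, carried the floxed allele and had the same carcinogens: diethylnitrosamine by intraperitoneal injection at 25 mg/kg in week 2 after birth, and carbon tetrachloride in corn oil at 0.5 ml/kg each week. All mice were killed at 5 months, and tumours dissected free of liver were frozen for RNA. The sex of the mice, how many mice the 3 tumours of a group came from and the hour of collection are not stated, so the p-values measure the spread between these libraries, which may be technical. The other 6 libraries came from a second floxed Miz1 allele and are used below only to look up the same genes.

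Zbtb17 encodes Miz1, a zinc finger protein that binds DNA near transcription starts and can activate or, together with MYC, repress genes such as cell cycle inhibitors. Its POZ domain lets it form homotetramers and bind partners, and chromatin binding needs it. Outside the nucleus Miz1 is known to restrain signalling downstream of the tumour necrosis factor receptor, and the series title links it to NF-kB and to metadherin in liver cancer.

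Absolute sequencing depth is unknown, and relative depth, read from the steps between low values, was 0.813 to 1.14 times the mean library. Zbtb17, on chromosome 4 from 141444654 to 141467930 on the plus strand, had 2.55, 2.60 and 1.95 FPKM in knockout tumours, against 2.03, 2.46 and 1.82 FPKM in floxed tumours. The groups overlapped (log2 difference 0.12 ± 0.14, moderated SE; exact two-sided permutation p = 0.3, where 0.1 is the smallest that 3 against 3 can give). The file gives 1 value for the whole gene, so this checks neither the loss of the POZ-coding exons nor, in a tumour that also holds other cells, the deletion in hepatocytes. Mtdh, which encodes metadherin, had 21.85, 25.34 and 25.28 FPKM in knockout tumours, against 19.76, 23.43 and 20.11 FPKM in floxed tumours, and these overlapped too (log2 difference 0.19 ± 0.13; exact two-sided permutation p = 0.2).

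Summed over 8 hepatocyte markers, the level was 38777.9 to 74835.3 FPKM in knockout tumours and 56543 to 87924.1 FPKM in floxed tumours. Of 6 markers of pancreas, muscle and fat, 5 were listed at 0 in every library, and the list summed to 3.81 to 7.68 FPKM in knockout tumours and 5.8 to 15.06 FPKM in floxed tumours. Sex-linked genes gave the same picture in all 6 libraries, with Ddx3y at 20.82 to 25.35 FPKM and Xist at 0.01 to 0.22 FPKM. Floxed replicate 3 stood apart: a fit that estimates the reliability of each library gave it the lowest weight (0.289) and gave floxed replicate 2 the highest (6.87). Folds that fell by over 1.5 times without it are given both ways.

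By limma on log2(FPKM + 1) with Benjamini-Hochberg adjustment over 11201 genes, 0 genes passed an adjusted p of 0.05 (0.0%), and the smallest was 0.0856. At an unadjusted p under 0.05 there were 976 genes (8.71%), 537 higher (4.79%) and 439 lower (3.92%) in knockout tumours. The groups did not overlap for 1680 genes (15%), of which 972 were higher (8.68%) and 708 lower (6.32%). With the bound of 2-fold, 77 genes were higher (0.687%) and 86 lower (0.768%), together 1.46% of the genes tested. Since 0 genes passed, the members below are described by their values and no gene is said to have changed.

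**Figure D1:**
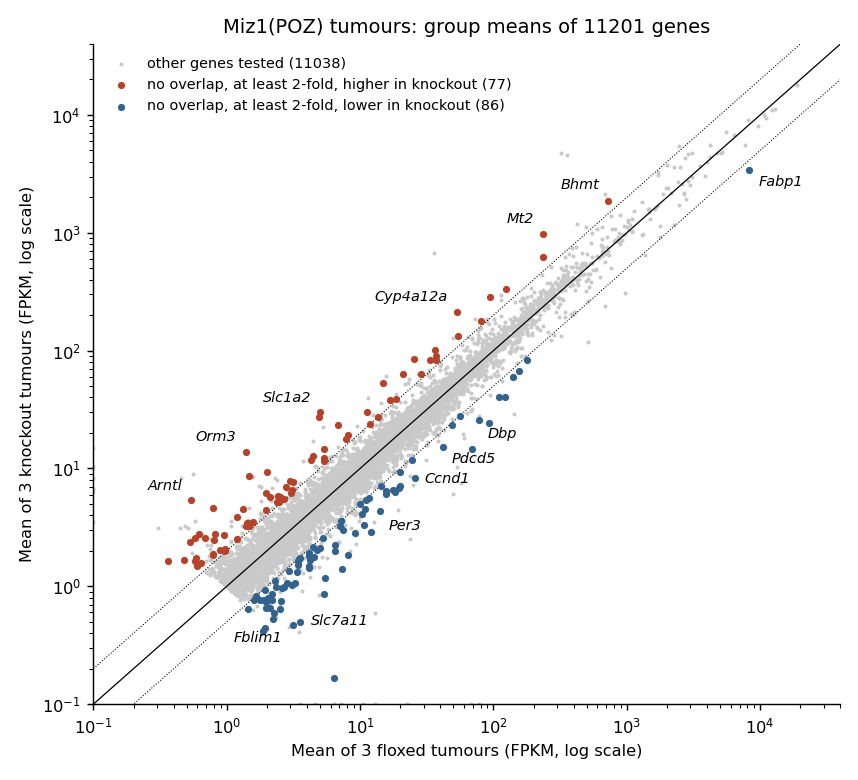
Mean FPKM of 3 knockout tumours (vertical) against that of 3 floxed tumours (horizontal) for 11201 genes, both axes logarithmic, with points under 0.1 drawn at the edge. Red points are the 77 genes and blue points the 86 genes at least 2-fold higher and lower in knockout tumours whose 3 and 3 values did not overlap; dotted lines mark 2-fold, and grey points outside them are genes whose groups overlapped.

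Around the bound, Nrp1 (2.00-fold) and B3galt1 (2.01-fold) lay just inside it among higher genes, and Sugct (2.00-fold after rounding up) and Spata24 (1.99-fold) just outside. Among lower genes Fam219aos and Fabp2 lay just inside, at 2.00-fold and 2.01-fold lower, and Glis3 and Gpr18 just outside, at 1.99-fold and 1.95-fold lower. Without floxed replicate 3, 65 of the 86 lower genes and 68 of the 77 higher genes were still at least 2-fold apart, and it had the highest floxed value in 48 of the 86 lower genes. With any 1 of the 6 libraries left out, 43 of the 77 and 40 of the 86 stayed at 2-fold or more. Limma gave its 5 smallest p to Pdcd5, Hist1h2bl, Per3, Gm13152 and Miip, whose adjusted p lay between 0.0856 and 0.0882.

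Genes of the circadian clock, a loop in which BMAL1 with CLOCK turns on period and cryptochrome genes whose products shut it down, lay on both sides. Arntl, which encodes BMAL1, was 9.90-fold higher in knockout tumours, while the period genes Per2 and Per3 and the outputs Dbp, Ciart, Usp2 and Wee1 were lower. As the hour of collection is not stated, genotype and hour cannot be told apart for these genes, and the part of the hour was not tested. Arntl had 3.73, 2.22 and 10.09 FPKM in knockout tumours, against 0.34, 0.46 and 0.82 FPKM in floxed tumours. Every knockout library was above every floxed one, although the knockout values spread widely and the fold was 5.51 without knockout replicate 3. Its partner Clock had 9.03, 10.55 and 10.93 FPKM in knockout tumours and 6.53, 6.58 and 5.02 FPKM in floxed tumours, also without overlap. Npas2, which can take the place of Clock, was below the filter, at 0.40, 0.25 and 1.42 FPKM in knockout tumours against 0.10, 0 and 0.10 FPKM in floxed tumours.

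The repressor Per3 had 3.35, 5.11 and 4.48 FPKM in knockout tumours, against 13.16, 13.31 and 15.46 FPKM in floxed tumours. It was 3.24-fold lower by group means, and both groups were tight (log2 difference -1.51 ± 0.15, adjusted p = 0.0870 by limma). Per2 had 3.30, 5.44 and 4.81 FPKM in knockout tumours, against 11.65, 8.51 and 12.67 FPKM in floxed tumours, 2.42-fold lower. Per1, the remaining period gene, overlapped at 8.53, 13.11 and 16.52 FPKM in knockout tumours and 16.17, 13.93 and 14.87 FPKM in floxed tumours.

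Dbp encodes a D-box-binding activator whose transcript cycles strongly in liver. It had 21.36, 46.18 and 10.07 FPKM in knockout tumours, against 92.20, 70.29 and 69.72 FPKM in floxed tumours, 2.99-fold lower without overlap. The repressor gene Ciart had 2.69, 5.37 and 1.86 FPKM in knockout tumours and 15.45, 11.03 and 5.59 FPKM in floxed tumours, so that the highest knockout and the lowest floxed value lay close together. Usp2, a clock-driven deubiquitinase, had 4.23, 7.84 and 7.56 FPKM in knockout tumours and 24.73, 19.58 and 8.68 FPKM in floxed tumours. Wee1, a mitotic kinase under clock control, had 1.38, 1.44 and 2.76 FPKM in knockout tumours and 9.22, 8.62 and 6.31 FPKM in floxed tumours, 4.33-fold lower.

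The clock genes Tef, Cry2 and Nr1d2, did not overlap and were lower by less than 2-fold. Tef had 23.31, 29.66 and 26.37 FPKM in knockout tumours and 58.69, 51.79 and 36.75 FPKM in floxed tumours. Nr1d1, which encodes the BMAL1 repressor REV-ERBα, overlapped, with knockout replicate 3 far below the rest, at 23.36, 40.10 and 3.60 FPKM in knockout tumours against 32.26, 17.08 and 16.20 FPKM in floxed tumours. In that library Arntl and Cry1 (11.88 FPKM) were at their highest. Of 20 clock genes 18 were tested, and 1 was higher and 5 lower without overlap at 2-fold or more, against 0.687% and 0.768% of all genes. Whatever the fold, 2 were higher and 8 lower without overlap, against 8.68% and 6.32% of all genes. The median log2 difference of the 18 was -0.45, against 0.03 over all genes, and it ran from -0.50 to -0.40 when 1 library at a time was left out.

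**Figure D2:**
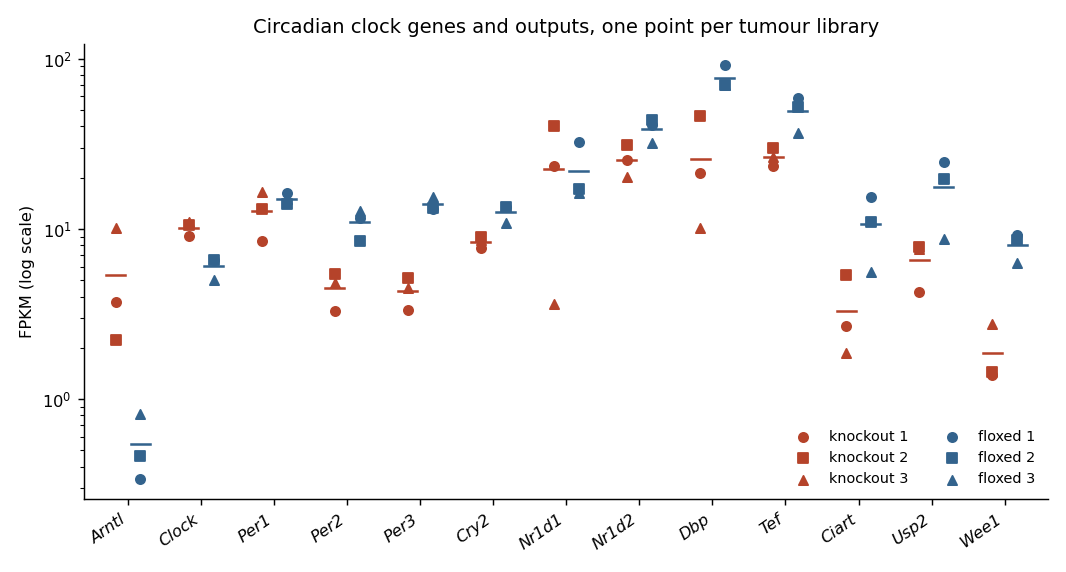
FPKM on a log axis of 13 clock genes and outputs in each tumour library, knockout in red left of floxed in blue, with marker shape giving the replicate number and bars the group means. Arntl and Clock lie higher in all 3 knockout libraries, Per2, Per3, Dbp, Ciart, Usp2 and Wee1 lie lower, and Per1 and Nr1d1 overlap.

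Promoter sequences of 3 of these genes are shown because they carry the letters through which the clock is known to act on its own genes: the D-box TTATGTAA bound by DBP and TEF, the E-box CACGTG bound by BMAL1 with CLOCK, and the receptor site AGGTCA bound by ROR and REV-ERB receptors. They are RefSeq promoters on GRCm38.p6, from 250 bases before to 50 bases after the transcription start, printed 5′ to 3′ on the gene's strand with the motif in capitals. Per3 lies on the minus strand at chr4:151044616-151044915, Ciart on the minus strand at chr3:95882179-95882478 and Arntl on the plus strand at chr7:113207261-113207560.
Per3: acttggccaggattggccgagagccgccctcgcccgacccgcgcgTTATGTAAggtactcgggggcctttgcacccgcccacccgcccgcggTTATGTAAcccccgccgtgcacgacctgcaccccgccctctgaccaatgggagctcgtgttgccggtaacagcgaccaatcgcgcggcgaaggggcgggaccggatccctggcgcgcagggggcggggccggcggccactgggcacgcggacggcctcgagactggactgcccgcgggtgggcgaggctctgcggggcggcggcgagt
Ciart: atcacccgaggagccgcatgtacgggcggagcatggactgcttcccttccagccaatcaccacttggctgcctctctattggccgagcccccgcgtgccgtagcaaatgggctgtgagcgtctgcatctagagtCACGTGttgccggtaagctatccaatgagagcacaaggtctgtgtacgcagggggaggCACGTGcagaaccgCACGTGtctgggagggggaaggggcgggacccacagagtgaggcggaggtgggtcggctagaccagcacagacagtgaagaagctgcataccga
Arntl: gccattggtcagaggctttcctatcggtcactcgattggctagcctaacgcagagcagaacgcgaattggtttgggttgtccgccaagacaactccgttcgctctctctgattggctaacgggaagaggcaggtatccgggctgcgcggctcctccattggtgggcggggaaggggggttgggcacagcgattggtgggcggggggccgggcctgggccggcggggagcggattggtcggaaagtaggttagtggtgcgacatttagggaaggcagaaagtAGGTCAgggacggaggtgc

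Both strands were searched in the promoters of 8439 tested genes that had a RefSeq entry. The Per3 promoter held 2 copies of the D-box, beginning at -205 and -158 from the start, a motif found in 0.782% of the promoters. The Ciart promoter held 3 copies of the E-box, at -116, -58 and -44, which do not overlap, and 12.1% of promoters held at least 1. The Arntl window held the receptor site once, 31 bases after the start, where 15.8% of promoters held it. Of 15 clock genes with a promoter, 1 held the D-box, 4 the E-box and 5 the receptor site. These matches describe letters and do not show binding in these tumours.

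Enzymes of amino acid breakdown and the methionine cycle were higher in knockout tumours for 35 of 40 genes, where 6239 of all 11201 genes were higher. Got1, Bhmt and Tat passed 2-fold without overlap, and 14 of the 40 were higher without overlap, against 8.68% of all genes. Got1, the cytosolic aspartate aminotransferase, had 127.93, 148.05 and 124.76 FPKM in knockout tumours, against 48.12, 69.38 and 43.73 FPKM in floxed tumours. Bhmt, which remakes methionine from homocysteine and betaine, had 1889.46, 2267.88 and 1400.39 FPKM in knockout tumours and 784.91, 572.34 and 812.30 FPKM in floxed tumours. Got1 was 2.49-fold and Bhmt 2.56-fold higher, with every knockout library well clear of the floxed ones.

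Tat, tyrosine aminotransferase, had 405.42, 676.64 and 798.83 FPKM in knockout tumours and 261.71, 284.53 and 160.47 FPKM in floxed tumours. Cdo1, which oxidises cysteine, had 924.80, 1143.08 and 920.87 FPKM in knockout tumours and 637.95, 566.51 and 443.62 FPKM in floxed tumours, under 2-fold. Ddc, which decarboxylates aromatic amino acids, was 2.39-fold higher (1.94-fold without floxed replicate 3), and the mitochondrial folate enzyme gene Mthfd1l, which like Ddc is not in the list of 40, was 3.23-fold lower. The list's median log2 difference was 0.34, and it was 0.16 without floxed replicate 3 and 0.18 without knockout replicate 2.

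Tat is also a classical target of glucocorticoids, as are Tsc22d3, which encodes GILZ, and the metallothionein gene Mt2. With G6pc and Insig2 they make a group of 5 higher genes, put together from the members after their values were seen. No full list of glucocorticoid targets was counted. Tsc22d3 had 40.83, 92.16 and 58.14 FPKM in knockout tumours and 29.88, 32.21 and 23.31 FPKM in floxed tumours, 2.24-fold higher and 1.74-fold without knockout replicate 2. Mt2 had 1865.83, 568.95 and 517.73 FPKM in knockout tumours and 122.14, 241.59 and 343.77 FPKM in floxed tumours, 4.17-fold higher and 2.30-fold higher without knockout replicate 1. G6pc, the last enzyme of glucose release, had 121.28, 200.55 and 213.53 FPKM in knockout tumours and 100.78, 75.33 and 64.39 FPKM in floxed tumours. Insig2, which holds back lipid synthesis, had 85.16, 84.27 and 81.12 FPKM in knockout tumours and 27.59, 41.12 and 42.72 FPKM in floxed tumours, with close values inside each group.

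Of 53 tested cytochrome P450 genes of families 1 to 4, 5 were higher and 0 lower at 2-fold or more without overlap. Over all genes the shares were 0.687% higher and 0.768% lower. Cyp4a12a, which hydroxylates fatty acids and is male-biased in mouse liver, had 165.83, 329.89 and 144.56 FPKM in knockout tumours and 74.32, 74.22 and 10.04 FPKM in floxed tumours. Cyp2c70, which makes muricholic acids from bile acids in mice, had 442.78, 314.98 and 235.12 FPKM in knockout tumours and 83.65, 145.52 and 146.05 FPKM in floxed tumours. Cyp2c37, Cyp2c50 and Cyp2c54 were 3.60-fold, 3.02-fold and 2.78-fold higher, and as near copies of one another in 1 cluster on chromosome 19 they could share reads. Of the 53, 33 were higher and 20 lower, near the split over all genes, with a median log2 difference of 0.10 that became -0.03 without floxed replicate 3. The sulfotransferase genes Sult2a7 (4.57-fold, and 3.28-fold without knockout replicate 1) and Sult1b1 (2.15-fold, and 1.55-fold without knockout replicate 2) were higher. Sult2a7 was low and nearly overlapped, at 0.48 FPKM in knockout replicate 3 against 0.46 FPKM in floxed replicate 1. The steroid enzyme genes Hsd17b6 (3.05-fold) and Cyp21a1 (a P450 of another family, 4.55-fold, and 2.83-fold without floxed replicate 3) were lower.

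Target genes of NRF2, the factor that turns on antioxidant defence, were lower for 33 of 40 in knockout tumours. Slc7a11, Cbr3, Osgin1 and Cbr1 were at least 2-fold lower without overlap, and 7 of the 40 were lower without overlap, against 6.32% of all genes. Slc7a11, the cystine importer, on chromosome 3 from 49892526 to 50443614, had 0.82, 0.29 and 0.39 FPKM in knockout tumours, against 3.05, 2.96 and 4.64 FPKM in floxed tumours. It was 7.10-fold lower, the second largest fold among lower genes after Gm13152, with low values in every library.

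The carbonyl reductase gene Cbr3 had 3.42, 1.82 and 3.42 FPKM in knockout tumours and 8.91, 12.36 and 14.67 FPKM in floxed tumours. Its neighbour Cbr1 had 69.09, 79.01 and 100.02 FPKM in knockout tumours and 167.80, 228.61 and 141.98 FPKM in floxed tumours. Osgin1, an oxidative stress-induced growth inhibitor, had 53.12, 47.70 and 101.96 FPKM in knockout tumours and 166.69, 128.49 and 168.26 FPKM in floxed tumours. Other textbook targets overlapped or lay under 2-fold: Nqo1 had 5.17, 4.97 and 11.02 FPKM in knockout tumours and 9.06, 11.23 and 11.65 FPKM in floxed tumours, and Gclc, Gclm, Txnrd1 and Srxn1 overlapped as well. Nfe2l2, which encodes NRF2, had 33.14, 33.11 and 33.45 FPKM in knockout tumours and 38.50, 32.10 and 43.37 FPKM in floxed tumours, which overlapped. The list's median log2 difference was -0.34 and ran from -0.48 to -0.20, the last without knockout replicate 1.

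All 10 genes grouped under lipid, glycogen and secreted metabolic factors were lower in knockout tumours, a group put together after their values were seen. The shared direction follows from the grouping, since higher genes of the same lists (Insig2, G6pc and Cyp4a12a) were placed in other groups. Of 29 fatty acid synthesis and lipid droplet genes tested, 10 were higher and 19 lower. Of 35 genes of glycolysis, gluconeogenesis and glycogen, 16 were higher and 19 lower, with a median log2 difference of -0.03. Fabp1, the liver fatty acid carrier, had 3411.05, 4089.96 and 2716.91 FPKM in knockout tumours and 11733.4, 7543.14 and 5527.08 FPKM in floxed tumours. It was 2.43-fold lower, and 1.92-fold lower without floxed replicate 1. G0s2, which blocks the lipase ATGL, had 28.99, 36.40 and 55.75 FPKM in knockout tumours and 159.52, 73.08 and 96.45 FPKM in floxed tumours. Gys2, liver glycogen synthase, had 41.40, 58.66 and 79.91 FPKM in knockout tumours and 141.66, 126.95 and 151.81 FPKM in floxed tumours.

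Vnn1, which makes cysteamine and is a known PPARα target, had 19.46, 25.70 and 24.98 FPKM in knockout tumours and 54.89, 46.09 and 44.72 FPKM in floxed tumours. Fabp2, Nrg4, Serpina12, Pla2g6, Osbpl10 and Aacs were 2.01-fold to 4.66-fold lower. Without floxed replicate 3 Osbpl10 was 1.53-fold lower, against 2.70-fold with it, and Aacs was 1.39-fold lower, against 2.10-fold. For Serpina12 floxed replicate 3 had 134.66 FPKM against 33.77 and 37.08 FPKM in the other floxed libraries, and the fold without it was 2.41. Across 37 PPARα and fatty acid oxidation genes the median log2 difference was -0.28, but it was 0.0014 without floxed replicate 1. That library held the highest Cyp4a14 (2092.38 FPKM, against 37.31 FPKM in floxed replicate 3) and Ehhadh, whose groups overlapped.

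In a group put together after their values were seen, 7 genes of cell division, its brakes and DNA repair were at least 2-fold lower without overlap in knockout tumours. A list of G1 cyclins and CDK inhibitors that holds Ccnd1 and Cdkn2b had 8 of 15 tested genes higher and 7 lower, with a median log2 difference of 0.0041. Ccnd1, cyclin D1, had 6.06, 6.59 and 12.20 FPKM in knockout tumours, against 18.43, 17.79 and 41.24 FPKM in floxed tumours, 3.12-fold lower. Ccne1, cyclin E1, had 0.97, 0.95 and 1.15 FPKM in knockout tumours and 1.92, 2.98 and 4.33 FPKM in floxed tumours. Cdkn2b, the inhibitor p15 and a known Miz1 target that MYC represses, had 1.19, 1.15 and 1.92 FPKM in knockout tumours and 2.14, 2.2 and 8.04 FPKM in floxed tumours. It was 2.91-fold lower with floxed replicate 3 and 1.53-fold lower without it.

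Psrc1, a microtubule regulator, was 6.26-fold lower with floxed replicate 3, which had 12.38 FPKM, and 2.17-fold lower without it. Myc itself overlapped, at 4.38, 2.39 and 6.31 FPKM in knockout tumours and 9.50, 11.51 and 6.23 FPKM in floxed tumours. Cdkn1a, the inhibitor p21 and another Miz1 target, overlapped at 10.63, 2.99 and 30.91 FPKM in knockout tumours and 4.83, 4.07 and 17.74 FPKM in floxed tumours. Of 14 tested genes of S phase and mitosis, 9 were higher and 5 lower, near the split over all genes, and Ccne1 alone passed 2-fold without overlap.

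Among 14 genes of vesicle transport and autophagy listed as known direct targets of Miz1, Vamp4, a SNARE of the trans-Golgi and endosomes, was the one past 2-fold, with 1.17, 1.01 and 1.01 FPKM in knockout tumours and 3.37, 2.45 and 2.67 FPKM in floxed tumours. It was 2.66-fold lower. Exoc2 had 3.14, 3.34 and 2.53 FPKM in knockout tumours and 4.01, 4.08 and 4.18 FPKM in floxed tumours, and Uvrag, Vps28 and Ambra1 were lower without overlap by under 2-fold too. On the other side Pik3r4, Stx6 and Vps4b were higher without overlap. In all, 3 of the 14 were higher and 5 lower without overlap, against 15% of all genes in either direction, with a median log2 difference of 0.01.

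Pdcd5, whose product acts in apoptosis and protein folding, had the smallest limma p. It had 14.15, 15.43 and 16.26 FPKM in knockout tumours, against 42.33, 37.98 and 44.11 FPKM in floxed tumours, with a wide gap between groups (log2 difference -1.38 ± 0.12, adjusted p = 0.0856 by limma). It lies on chromosome 7 from 35641982 to 35647521. Clpx, part of a mitochondrial protease, was on the opposite side with 55.48, 51.77 and 82.92 FPKM in knockout tumours and 21.96, 21.64 and 18.98 FPKM in floxed tumours. Ppp1r10, a nuclear regulator of protein phosphatase 1, had 16.08, 26.91 and 27.66 FPKM in knockout tumours and 5.64, 5.46 and 9.34 FPKM in floxed tumours. Rpl22l1, a paralogue of ribosomal protein L22, was the one of 81 cytosolic ribosomal protein genes that passed 2-fold without overlap, with 72.06, 76.50 and 120.29 FPKM in knockout tumours and 29.54, 39.03 and 42.45 FPKM in floxed tumours.

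Among 54 tested histone genes, the H2B genes Hist1h2bl, Hist1h2bk and Hist1h2bh were higher and Hist1h3a was lower at 2-fold or more without overlap. Over all genes the share past 2-fold was 1.46%. Of the 54, 37 were higher and 17 lower, and 9 were higher and 4 lower without overlap, against 8.68% and 6.32% of all genes. Hist1h2bl had 7, 11.30 and 7.79 FPKM in knockout tumours and 1.16, 1.64 and 1.60 FPKM in floxed tumours, 5.93-fold higher (adjusted p = 0.0856 by limma). Hist1h2bk and Hist1h2bh were 2.76-fold and 2.38-fold higher. Histone genes are near copies of each other, so counts could have been split between them.

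Slc1a2, a glutamate transporter of pericentral hepatocytes, had 24.88, 43.93 and 20.96 FPKM in knockout tumours, against 6.80, 4.25 and 4.04 FPKM in floxed tumours. At 5.95-fold it had the third largest fold among higher genes. Glul, the pericentral glutamine synthetase and like Slc1a2 a target of Wnt signalling, had 138.06, 215.49 and 114.85 FPKM in knockout tumours and 88.33, 81.16 and 69.52 FPKM in floxed tumours, 1.96-fold higher without overlap. Other Wnt targets overlapped, among them Axin2 with 3.02, 3.97 and 1.77 FPKM in knockout tumours and 3.65, 2.60 and 1.21 FPKM in floxed tumours. Of 20 genes tested, 15 were higher and 5 lower, with a median log2 difference of 0.26 that was 0.08 without knockout replicate 2.

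Among 29 acute phase genes 24 were higher, where 6239 of all 11201 genes were higher. Without overlap 1 was higher, against 8.68% of all genes, and the same gene passed 2-fold, against 0.687%. Orm3, a minor orosomucoid gene, had 28.92, 9.96 and 2.24 FPKM in knockout tumours and 0.97, 1.45 and 1.73 FPKM in floxed tumours, with the lowest knockout value just above the highest floxed one. It was 9.91-fold higher, and 4.41-fold without knockout replicate 1. Its paralogues overlapped and could share reads with it, as with Orm2 at 1595.53, 403.80 and 17 FPKM in knockout tumours and 17.96, 22.76 and 66.28 FPKM in floxed tumours. Saa1, serum amyloid A, had 12412.5, 1249.70 and 15 FPKM in knockout tumours and 63.78, 51.49 and 944.13 FPKM in floxed tumours, so that it was high in knockout replicates 1 and 2 and in floxed replicate 3. The list's median log2 difference was 0.64, and 0.09 without knockout replicate 1.

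Neutrophil markers, 4 measured of 5, summed to 38.98, 22.17 and 9.69 FPKM in knockout tumours and 6.24, 6.01 and 22.89 FPKM in floxed tumours, which follows the order of Saa1 within the knockout group and is highest in floxed replicate 3 as well. Their part in the acute phase values was not tested, and in whole tumours fewer cells of a type and less RNA per cell cannot be told apart. Il1b, interleukin 1β, a cytokine of inflammation, was 3.53-fold higher (2.31-fold without knockout replicate 1) with 2.85, 1.36 and 0.84 FPKM in knockout tumours and 0.28, 0.67 and 0.48 FPKM in floxed tumours. Other NF-kB targets did not reach 2-fold without overlap. Of 26 tested, 21 were higher and 5 lower, with a median log2 difference of 0.11 that stayed between 0.06 and 0.11 with 1 library left out.

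Interferon response genes were higher for 34 of 37 in a list of which Rtp4 alone was past 2-fold without overlap. Of the 37, 5 were higher without overlap, against 8.68% of all genes, and 0.687% of all genes were higher past 2-fold. Outside the list, the interferon-induced genes Ifi47 and Cmpk2 were 2.30-fold and 2.26-fold higher without overlap, and 1.63-fold and 1.55-fold without knockout replicate 2. Rtp4 had 9.08, 27.25 and 7.12 FPKM in knockout tumours and 6.35, 5.07 and 4.64 FPKM in floxed tumours, with knockout replicate 2 well above the rest, and the fold of 2.71 was 1.51 without that library. The same library was highest for Ifit1, at 5.11, 25.47 and 3.98 FPKM in knockout tumours and 4.98, 3.02 and 3.22 FPKM in floxed tumours. The list's median log2 difference was 0.51, and 0.06 without knockout replicate 2.

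The immediate early genes Fos and Nr4a1 were highest in knockout replicate 3. Nr4a1, an orphan nuclear receptor, had 0.87, 2.24 and 5.18 FPKM in knockout tumours and 0.53, 0.64 and 0.68 FPKM in floxed tumours, 4.48-fold higher and 2.52-fold without knockout replicate 3. Fos had 2.24, 1.05 and 5.05 FPKM in knockout tumours and 0.59, 1.02 and 0.85 FPKM in floxed tumours, 3.39-fold higher and 2.01-fold without knockout replicate 3. Jun and Egr1 overlapped, and the list of 21 had a median log2 difference of 0.26, and 0.01 without knockout replicate 3.

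**Figure D3:**
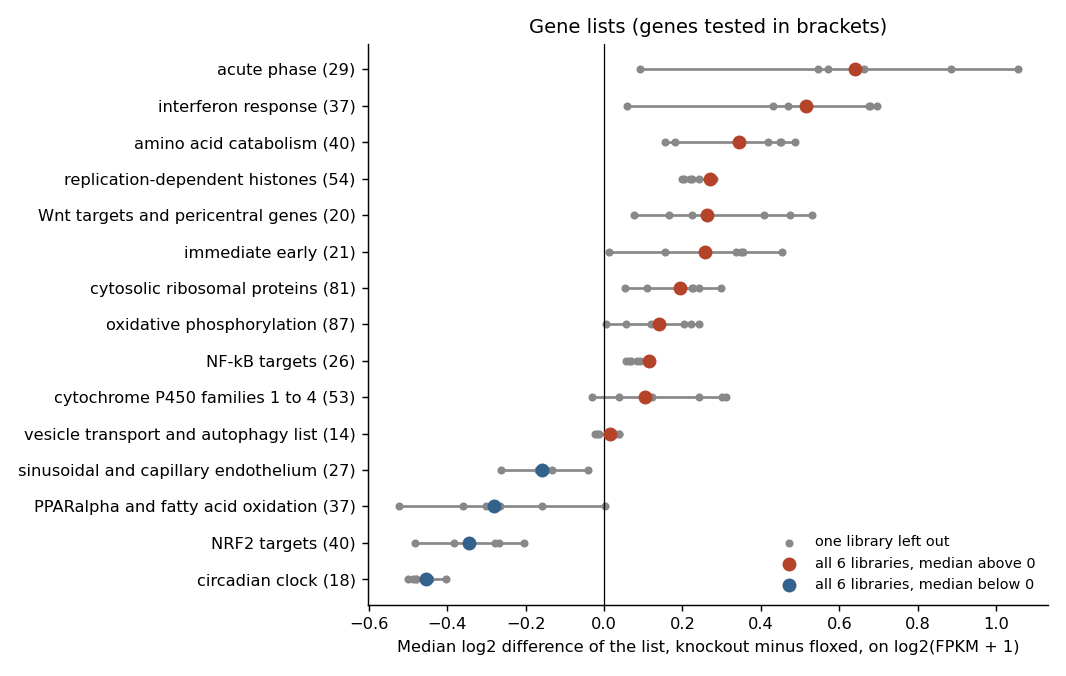
Median log2 difference (knockout minus floxed, on log2(FPKM + 1)) of 15 gene lists with all 6 libraries (large points) and with each library left out in turn (grey points and their range). Clock and NRF2 genes stay at or below -0.20 and histone genes at or above 0.20 throughout. Acute phase, interferon, endothelial, immediate early, Wnt and ribosomal protein genes come within 0.1 of 0 without 1 knockout library and PPARα genes without 1 floxed library. Oxidative phosphorylation, P450 and NF-kB genes do so without 1 library of either group, and vesicle transport genes lie there throughout.

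Signalling genes were split. Bmp7 and Bmp8b, bone morphogenetic protein ligands, were 4.35-fold and 3.26-fold lower (2.73-fold and 2.17-fold without floxed replicate 3), and Bmper, which binds such ligands, was 2.97-fold higher and 1.76-fold without knockout replicate 1. Bmp7 had 0.38, 0.50 and 0.45 FPKM in knockout tumours and 1.11, 1.31 and 3.37 FPKM in floxed tumours. Fgfr2, a fibroblast growth factor receptor, had 11.01, 11.13 and 13.23 FPKM in knockout tumours and 17.77, 20.99 and 34.51 FPKM in floxed tumours, 2.07-fold lower with floxed replicate 3 and 1.64-fold without it. Rgs16, a brake on G protein signalling, had 25.95, 28.00 and 18.93 FPKM in knockout tumours and 45.34, 67.53 and 164.16 FPKM in floxed tumours, 3.80-fold lower and 2.32-fold without floxed replicate 3.

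The exchange factor gene Arhgef10 was 3.43-fold lower, and the receptors Avpr1a (vasopressin) and Chrm3 (acetylcholine) were 3.15-fold and 2.25-fold higher. Scara5, a ferritin receptor, had 11.04, 8.2 and 8.62 FPKM in knockout tumours and 1.66, 1.34 and 2.97 FPKM in floxed tumours, 4.67-fold higher with every knockout library clear of the floxed ones. Serpina7, thyroxine-binding globulin, was 5.59-fold higher but nearly overlapped, at 7.37 FPKM in knockout replicate 2 against 7.03 FPKM in floxed replicate 1, and it was 3.10-fold higher without knockout replicate 3. Hamp2, the second hepcidin gene, was 2.69-fold higher. Atp6v0d2, a proton pump subunit, was 5.94-fold higher and 3.40-fold without knockout replicate 3. Of 208 solute carrier genes tested, Slc1a2 and Slc45a3 were higher and Slc7a11 lower at 2-fold without overlap, near the 1.46% of all genes. Slc45a3 was 2.18-fold higher, and 1.56-fold without knockout replicate 3.

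Genes near Zbtb17 on chromosome 4 were counted by whether their groups overlapped, with no test of the counts. Within 1 Mb of its start 10 of 24 tested genes did not overlap (41.7%), and within 10 Mb 39 of 176 did not (22.2%), against 14.2% from 10 to 20 Mb and 15% over all chromosomes. At 2-fold or more there were 2 higher and 6 lower genes within 10 Mb, 4.55% against 1.44% over all 10677 genes with coordinates. Of 197 windows of 10 Mb with at least 20 tested genes, the one from 140 to 150 Mb on chromosome 4 had the second highest share (35.6%), after 20 to 30 Mb on chromosome 12 (36.4%, 8 of 22 genes). The adjoining window from 130 to 140 Mb on chromosome 4 ranked 126, with 15 of 118 genes not overlapping (12.7%).

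Fblim1, a filamin-binding protein of cell junctions, lies 0.161 Mb after Zbtb17 and had 0.47, 0.38 and 0.55 FPKM in knockout tumours, against 2.25, 2.34 and 4.86 FPKM in floxed tumours. Its neighbour AI507597, a transcript annotated as antisense, had 1.64, 1.90 and 2.19 FPKM in knockout tumours and 4.95, 3.62 and 3.92 FPKM in floxed tumours. Fam131c, 0.0764 Mb on the other side, was higher instead, with 4.72, 5.94 and 2.84 FPKM in knockout tumours and 1.84, 1.37 and 0.73 FPKM in floxed tumours. Miip, an inhibitor of cell migration, had 0.94, 1.56 and 1.04 FPKM in knockout tumours and 6.46, 5.17 and 4.62 FPKM in floxed tumours, 4.59-fold lower (adjusted p = 0.0870 by limma).

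Fv1, a retrovirus restriction gene 162 bases from Miip, had 0.40, 0.71 and 0.46 FPKM in knockout tumours and 3.05, 1.46 and 2.21 FPKM in floxed tumours. Gm13152, named Zfp982 in RefSeq and placed there on chromosome 4 from 147443114 to 147516064, 6.00 Mb from Zbtb17, had the largest fold of all members. It had 0, 0.44 and 0.06 FPKM in knockout tumours, against 8.58, 6.89 and 3.68 FPKM in floxed tumours (log2 difference -2.62 ± 0.29, adjusted p = 0.0882 by limma). It belongs to a cluster of closely alike zinc finger genes that could share reads, and it is not among the genes counted by position. Per3, 9.60 Mb after Zbtb17, is also in this neighbourhood, as are Alpl (2.03-fold lower, and 1.61-fold without floxed replicate 3) and Extl1 (4.52-fold higher). In the tumours of the other Miz1 allele, 12 of 170 genes within 10 Mb found in both tables did not overlap (7.06%), against 4.91% of all genes. No cause of these local counts was tested.

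**Figure D4:**
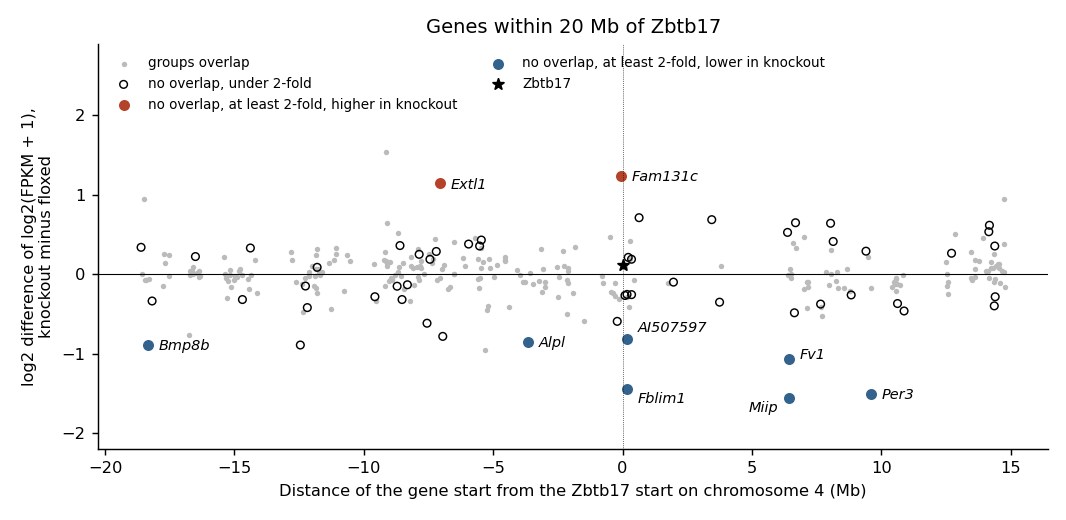
Log2 difference on log2(FPKM + 1), knockout minus floxed, of tested genes within 20 Mb of the Zbtb17 start on chromosome 4 against their distance in Mb. Filled points are genes at least 2-fold apart without overlap, open points those without overlap under 2-fold; Fblim1, AI507597, Miip, Fv1 and Per3 lie below 0 and Fam131c and Extl1 above.

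The remaining members follow no single function. By the 19 groups drawn up after their values were seen, 110 of the 163 had a group and 53 had none, and 3 higher and 9 lower members were small RNA or predicted genes. Cilium and dynein genes lay on both sides, with Tmem67, Tctex1d2 and Kifap3 among the higher ones and Dynlt1b, Cys1, Drc1 and Unc119 among the lower ones. Without floxed replicate 3 Drc1 was 1.60-fold lower, against 2.83-fold with it. Dynlt1b, a dynein light chain with near copies in the genome, had 7.60, 7.06 and 5.93 FPKM in knockout tumours and 17.96, 17.30 and 23.92 FPKM in floxed tumours. Asap2, an activator of Arf GTPase turnover, had 4.42, 3.99 and 3.27 FPKM in knockout tumours and 1.06, 1.19 and 1.32 FPKM in floxed tumours, with close values inside each group.

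Among the largest folds not yet given, Ube2u, Extl1 and Plac9b were 4.52-fold, 4.52-fold and 3.71-fold higher. Ocstamp was 5.17-fold lower and 1.85-fold lower without floxed replicate 3, which had 16.59 FPKM against 2.42 and 2.79 FPKM in the other floxed libraries. Zfp57, which guards imprints, was 3.85-fold lower (2.01-fold without floxed replicate 3), and Foxq1, a forkhead factor, had 9.56, 2.02 and 7.37 FPKM in knockout tumours and 16.78, 20.79 and 17.46 FPKM in floxed tumours. Among zinc finger genes, Zbtb45, a POZ-domain relative of Miz1, was 2.09-fold lower and 1.49-fold without floxed replicate 1, Zfp692 was 2.55-fold lower and Zfp932 was 2.40-fold higher. Of 239 listed zinc finger genes tested (Zbtb45 not among them), 1 was higher and 2 lower past 2-fold without overlap. That is near the 1.46% of all genes. Serpinb9, an inhibitor of granzyme B, was 2.32-fold higher. Lists of 27 endothelial, 39 matrix, 26 macrophage and 9 bile duct genes tested held 0 members at 2-fold without overlap. Over all genes the share was 1.46%, so lists of this size could hold few. Of the endothelial genes 6 were higher and 21 lower, with 1 higher and 3 lower without overlap.

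The same genes were looked up in the tumours of the other Miz1 allele, which were deposited as normalized reads and share no library with these. Of the 77 higher genes 74 were measured there and 40 were higher in that knockout as well (54.1%, against 52.7% of 10842 genes in both tables). Of the 86 lower genes 79 were measured and 47 were lower (59.5%, against 47.3%). There 4.91% of all genes did not overlap, 2.04% higher and 2.87% lower. Among the members 4 higher and 3 lower genes did not overlap in the same direction and 3 in the opposite one.

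Nr4a1 had 215.6, 103.9 and 123.8 normalized reads in Miz1 knockout tumours, against 71.96, 67.08 and 69.69 normalized reads in their floxed controls, and Gipc2, Insc and Spata22 were the other higher genes. Caln1, Rsrc1 and Zc3h8 were the lower ones, and Caln1 had 2.40, 83.65 and 62.39 normalized reads in Miz1 knockout tumours against 182.3, 295.4 and 381.8 in floxed tumours. Among clock genes the fold of Miz1 knockout over floxed was 0.393 for Per3, 0.448 for Dbp, 0.217 for Ciart, 0.366 for Usp2 and 1.44 for Arntl. All lay on the same side as in the Miz1(POZ) tumours, but their groups overlapped in that table, while Per1 did not overlap there (0.409). For Tat, Bhmt and Got1 the folds were 0.480, 0.482 and 0.577 with overlap, on the other side. Slc7a11 and Pdcd5 had folds of 1.71 and 0.918, also with overlap. The 2 alleles were not tested against each other, since units and processing differ.

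**Figure D5:**
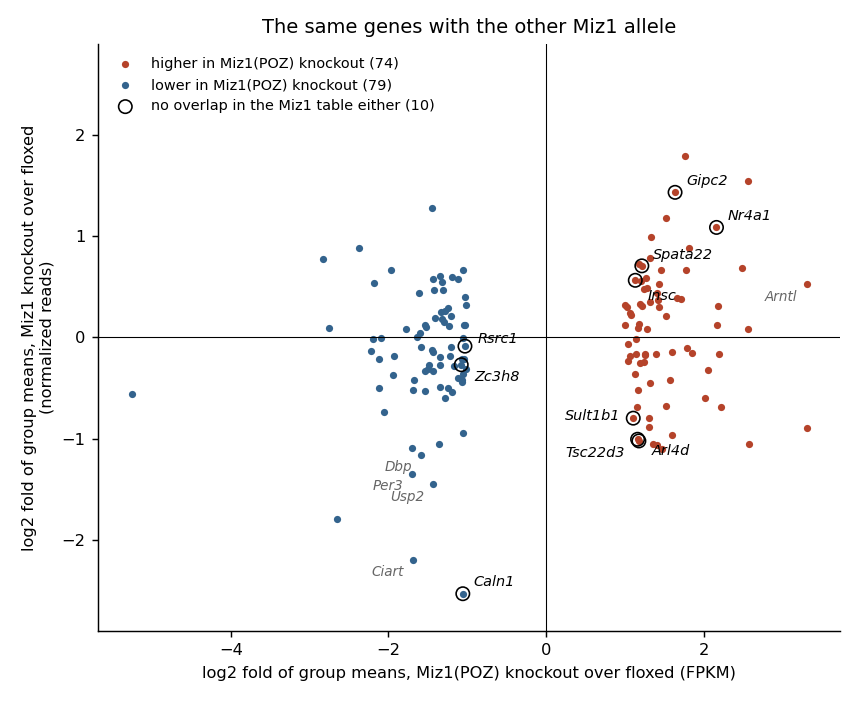
Log2 fold of group means, knockout over floxed, in the Miz1(POZ) tumours (horizontal, from FPKM) and in the Miz1 tumours (vertical, from normalized reads) for the 74 higher (red) and 79 lower (blue) genes found in both. Circles mark the 10 genes whose groups did not overlap in the Miz1 table either: Gipc2, Nr4a1, Spata22 and Insc upper right, Caln1, Rsrc1 and Zc3h8 lower left, and Arl4d, Sult1b1 and Tsc22d3 lower right.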

How the data were processed

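RNA from flash-frozen liver tumours was made into TruSeq libraries from 1 ug of total RNA, per the labels. The submitters' processing notes name Bowtie2 2.2.6 and RSEM 1.1.17 besides Trimmomatic 0.36 and the mm10 build, with no roles. The Miz1(POZ) values were deposited as FPKM with 2 decimals, a unit read from the values, since the file does not name it. The Miz1 values are a signal, read counts divided by a library factor, as deposited, and were used as descriptions only, without 4 entries that name no gene and held 38.1% to 50.8% of the reads per library. No count test was run, as neither table holds raw counts.

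Genes with a mean of at least 1 FPKM were fitted on log2(FPKM + 1), a scale that understates folds of low genes, by limma 3.58.1 with a mean-variance trend in R 4.3.3; p-values were adjusted by Benjamini-Hochberg and called at 0.05. Folds are of mean FPKM. The fit was tested on simulated data. Members, lists and groups were chosen with earlier results of these data known. Named genes were Zbtb17 and Mtdh, list members past 2-fold without overlap, the 15 largest folds each way without predicted genes, the 5 smallest p, and 2 genes each side of the bound. Others named, such as clock, NRF2 and Miz1 targets that overlapped, were chosen after their values were seen. Coordinates are 1-based, GENCODE M21 on GRCm38 (mm10) unless RefSeq is named.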

Additional observations from a re-analysis of the deposited data

Results flagged for a closer look

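Arl4d, Sult1b1 and Tsc22d3 lay on opposite sides in the 2 knockouts, with no overlap between groups in either table. They were 3 of the 74 higher members measured in the Miz1 table, where 2.87% of all 10842 genes were lower without overlap. A count this small lies near that share. Arl4d, a small GTPase, was 2.26 times its floxed level in Miz1(POZ) knockout tumours and 0.492 times in Miz1 knockout tumours. Its values were 8.39, 26 and 19 FPKM in Miz1(POZ) knockout tumours against 7.57, 8.35 and 7.66 FPKM in their floxed controls, so the lowest knockout value was only just clear, and the fold was 1.74 without knockout replicate 2. Sult1b1, a sulfotransferase, was 2.15 times its floxed level in Miz1(POZ) knockout tumours and 0.575 times in Miz1 knockout tumours. Tsc22d3, a glucocorticoid target, was 2.24 times its floxed level in Miz1(POZ) knockout tumours and 0.498 times in Miz1 knockout tumours. It had 1426.9, 2674.2 and 2651.4 normalized reads in Miz1 knockout tumours against 2789.6, 6485.3 and 4295.3 in their floxed controls. The difference between the knockouts was not tested. Groups of 3 libraries are too small for an outlier test.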

How the results depend on the processing

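The limma count of 0 stayed at 0 with a pseudocount of 0.1, no filter, a mean of at least 5 FPKM, median-ratio scaling, quantile normalisation and robust moderation. It was 97 with array weights (54 of them among the 163 members), and 0 to 4 with 1 library left out. The array weights were 6.87 for floxed replicate 2 against 0.836 and 0.289 for floxed replicates 1 and 3, so that count rests mostly on 1 floxed library. Of 181 genes followed, 56 passed with array weights and 2 without floxed replicate 3 (Gm13152 and Scara5). Bhlhe40 (0.11) and Nr1d1 (0.061) turned direction with array weights, as did Nr1d1 and Cry1 without knockout replicate 3 (their log2 differences ran from -1.04 to 0.54 and from -0.31 to 0.59 with 1 library left out). The 77 higher and 86 lower genes became 248 and 217 at 1.5-fold, 25 and 26 at 3-fold, and 36 and 34 at a mean of at least 5 FPKM. With 1 library left out, which makes non-overlap easier, they ran from 95 to 178 and from 104 to 207, while 43 and 40 of the members stayed at 2-fold in all 6 such comparisons.

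Same-numbered libraries deviated from their group means with correlations of -0.09, 0.23 and 0.17, inside the -0.32 to 0.25 of differently numbered ones. With 3 libraries in each group this can neither show nor exclude pairing, and the labels state none. With the replicate block limma called 0 genes (592 higher and 484 lower at an unadjusted p under 0.05), and requiring all same-numbered pairs to be 1.5-fold apart in place of non-overlap gave 64 higher and 71 lower genes. Of genes at an unadjusted p under 0.05, 55% were higher, against 47.9% with median-ratio scaling, 46.3% without floxed replicate 3 and 65.3% without knockout replicate 1. Low genes carry the least precision, which cannot be given since depth is unknown.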
